A study of Mus musculus with 56 samples.

Results

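Liver mRNA levels of 10 genes of matrix turnover and TGF-beta signalling were examined in 56 female APOE*3Leiden.CETP mice. The genes were chosen by name: 3 matrix metalloproteinases (Mmp2, Mmp13 and Mmp14), 3 tissue inhibitors of metalloproteinases (Timp1, Timp2 and Timp3), 2 lysyl oxidases (Lox and Loxl1) and 2 TGF-beta ligands (Tgfb1 and Tgfb3). The choice was made with earlier results of these data known. Numbers of genes called, set beside the share of all genes, are therefore descriptions and no test of enrichment. All 10 were among the 45513 genes listed in each mouse, and all 10 were among the 14314 genes that passed the filter on low counts. APOE*3Leiden.CETP mice carry human APOE*3Leiden and CETP transgenes and have a human-like lipoprotein metabolism. All mice, controls included, were aged 9 to 14 weeks at the start and ate a Western-type diet with 15% cacao butter and 0.15% cholesterol. There were 7 groups of 8 mice. Control mice received the vehicle, 5% carboxymethyl cellulose, by oral gavage. The other groups received imatinib at 150 mg/kg in each of 2 gavages per day (control, nilotinib and ponatinib mice had vehicle as the added gavage), nilotinib at 10 or 30 mg/kg in 1 gavage per day, ponatinib at 3 or 10 mg/kg in 1 gavage per day, or L-NAME at 0.12 to 0.20% in drinking water. Livers were taken after 16 weeks of treatment in the drug study. For the L-NAME group no schedule beyond the labels was used here. Imatinib, nilotinib and ponatinib are inhibitors of the BCR-ABL tyrosine kinase, and L-NAME is an inhibitor of nitric oxide synthases.

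The extracellular matrix of the liver is laid down mainly by activated hepatic stellate cells and portal fibroblasts. Metalloproteinases cleave its collagens and other proteins, TIMPs block metalloproteinases by binding their active site, and lysyl oxidases cross-link collagen and elastin fibres, which makes them harder to degrade. TGF-beta is secreted in a latent form bound to matrix proteins and, once released, is a strong inducer of collagen synthesis in stellate cells.

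The 6 of the 10 genes whose promoters were matched differ in the sequence around the start of their transcripts. The stretch before the start of 3 of them is shown because these genes had the most mice without a read in a treated group (Mmp13), the calls that held under the most settings (Mmp14) and the differences between compounds (Tgfb1). Each sequence covers the 150 bases before the transcript start of the RefSeq annotation on GRCm38.p6, 5′ to 3′ on the strand of the gene, and capitals mark matches to TGANTCA (the AP-1 motif), TATAAA (the TATA box) or GGGCGG (the GC box) on either strand, with N standing for any base.
Mmp13, chr9:7272364-7272513, + strand: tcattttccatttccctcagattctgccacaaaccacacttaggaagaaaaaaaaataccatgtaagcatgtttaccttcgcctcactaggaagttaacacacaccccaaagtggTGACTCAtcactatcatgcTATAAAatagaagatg
Mmp14, chr14:54431448-54431597, + strand: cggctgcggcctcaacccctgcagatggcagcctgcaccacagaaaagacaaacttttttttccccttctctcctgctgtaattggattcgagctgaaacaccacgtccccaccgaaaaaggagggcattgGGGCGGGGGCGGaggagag
Tgfb1, chr7:25686852-25687001, + strand: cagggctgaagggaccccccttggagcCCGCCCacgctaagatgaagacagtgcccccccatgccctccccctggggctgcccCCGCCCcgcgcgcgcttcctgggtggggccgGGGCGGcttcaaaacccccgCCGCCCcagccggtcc
The Mmp13 sequence held an AP-1 match that starts 35 bases before the transcript start and a TATA match that starts 16 bases before it, and 38.7% of its bases were G or C. The Mmp14 and Tgfb1 sequences held GC boxes and no AP-1 or TATA match, with 57.3% and 76.0% G or C. Counted over the whole window of 250 bases before to 50 bases after the start, Tgfb1 held 6 GC boxes, Mmp14 and Timp3 held 2 each, Timp1 and Timp2 held 1 each and Mmp13 held none. Neighbouring GC boxes can share bases. Of all 32851 promoters of this length in the table, 7.81% held an AP-1 match, 13.62% a TATA match and 35.66% a GC box. Promoters of 6 of the 10 genes were matched in the table. Mmp2, Lox, Loxl1 and Tgfb3 were not. A match describes the letters in the window and does not show binding.

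Library sizes, as reads assigned to genes, ran from 5342379 to 97473341 (median 7570238). The highest value was that of L-NAME replicate 2, and the next was 17996732. Levels are given in CPM, counts scaled by library size and TMM factors, and the replicates are separate mice. No pair of the 56 files held identical values. At these depths a count of 0 allows up to 3 reads, or 0.0288 to 0.540 CPM depending on the library, and such limits cover counting error only. The share of aligned reads outside annotated genes was 7.97% ± 0.42 (mean ± SD) in control mice. Imatinib mice had 10.04% ± 1.82, nilotinib mice 9.75% ± 0.69 at the low and 10.5% ± 1.38 at the high dose, ponatinib mice 8.53% ± 0.61 and 11.04% ± 1.99, and L-NAME mice 10.99% ± 2.45. Within groups, Pearson's r of the 10 genes with this share lay between -0.21 (Mmp14) and 0.23 (Timp3) over the 56 mice. Hepatocyte markers identified the tissue as liver, with albumin (Alb) at a median of 87583 CPM in control mice.

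Compared per kilobase of exon, the genes spanned more than an order of magnitude in control livers. Timp2 and Mmp14 were the highest, at 9.03 ± 3.19 and 7.86 ± 1.31 CPM per kb (mean ± SD, n = 8 mice), followed by Timp3 at 4.69 ± 1.01 and Tgfb1 at 4.61 ± 1.35. Mmp2 was at 3.02 ± 1.88, Loxl1 at 1.73 ± 1.08, Timp1 at 1.36 ± 1.30, Tgfb3 at 0.859 ± 0.508, Mmp13 at 0.775 ± 0.785 and Lox at 0.492 ± 0.300 CPM per kb. Mmp13, Timp1, Lox and Tgfb3 therefore rested on few reads, with control medians of 14, 11, 18 and 23 reads per mouse. The libraries were made with a kit that does not mark strand, so that reads from overlapping genes on opposite strands cannot be told apart. Timp3 shares 1733 of its 8144 exon bases with Syn3, Tgfb3 shares 420 of 3383 with Gm37804 and Gm48008, and Lox shares 30 of 4778 with AC161119.1. The other 7 genes share no exon base with another gene in GENCODE vM21.

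The control mice varied widely in these genes. Control replicate 6 had the highest level of the control group in 6 of the 10 genes and control replicate 3 the lowest in 7. Both are part of every comparison with control, and calls that depend on 1 mouse are named beside the gene. The ranges of both groups overlapped for each of the 10 genes in all 12 comparisons, and in the order of group means of each gene, all 60 neighbouring pairs of groups had overlapping ranges.

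**Figure D1:**
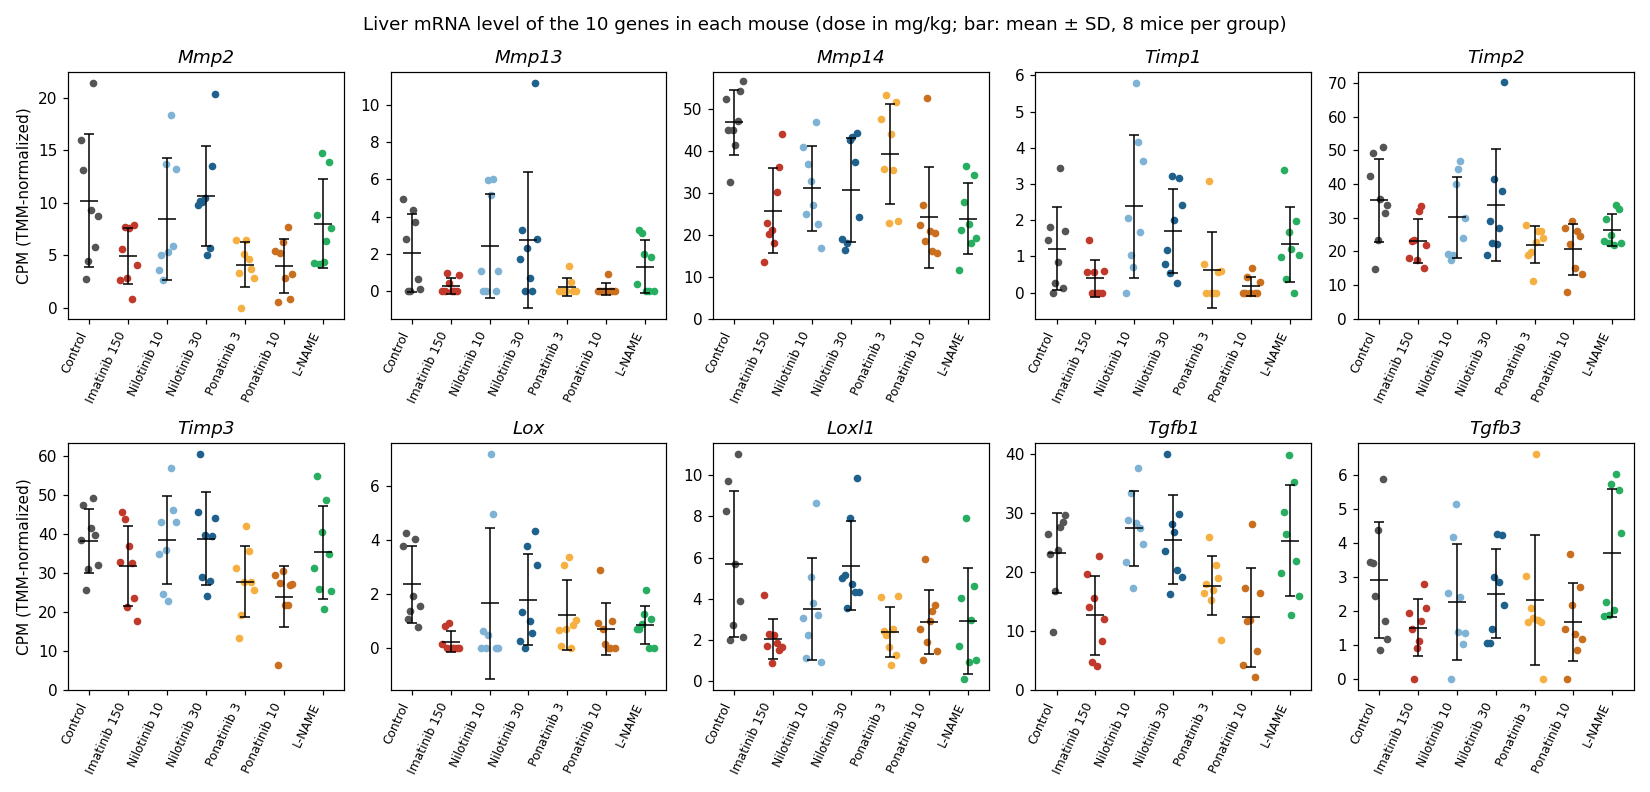
Level in CPM (vertical axis, linear, TMM-normalized) of each of the 10 genes in each of the 56 mice, 8 points per group with the mean and SD as bars. For Mmp13, 7 of 8 mice given ponatinib 10 mg/kg and 5 of 8 given imatinib lie at 0 reads, and for Mmp14 the control points lie between 32.6 and 56.6 CPM, above 7 of the 8 ponatinib 10 mg/kg points.

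Each treated group was compared with control, to find which of the 10 genes changed with which treatment, and the quasi-likelihood test of edgeR was applied to all 14314 genes. A gene was called where its unadjusted p-value was under 0.01, and the adjusted p-values given are Benjamini-Hochberg values over all these genes. With ponatinib 10 mg/kg, 6 of the 10 genes fell, against 15% of all tested genes called in either direction and 6.85% called lower: Mmp2, Mmp13, Mmp14, Timp2, Timp3 and Tgfb1. All 6 had adjusted p-values below 0.05, where 5.87% of all genes were lower. With imatinib, 4 fell (Mmp14, Lox, Loxl1 and Tgfb1, all with adjusted p-values below 0.05), against 12.9% of all genes called, 6.06% called lower and 4.58% lower at the adjusted threshold. With ponatinib 3 mg/kg, Mmp2 and Timp2 fell, against 3.14% of all genes called and 1.74% called lower, but neither passed at an adjusted p-value of 0.05, which 0.0419% of all genes passed as lower. Without control replicate 1, 2 or 6 or ponatinib 3 mg/kg replicate 2 or 3 neither was called. With L-NAME, Mmp14 fell, against 14% of all genes called, 7.29% called lower and 6.24% lower at the adjusted threshold, so that 1 in 10 is near the background. With nilotinib 10 and 30 mg/kg none of the 10 was called by edgeR, against 5.97% and 9.35% of all genes. In each of these nilotinib comparisons 1 gene had an unadjusted p-value below 0.05 (Mmp14), DESeq2 called none, and limma voom called 2 at 10 mg/kg (Mmp14 and Lox) and 1 at 30 mg/kg (Mmp14). The share of all genes was not counted for these other tools or this cut-off.

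The median log2 fold change of the 10 genes against control was -1.0 with imatinib. For ponatinib it was -0.82 at the low and -0.97 at the high dose, and all 10 values were below 0 in each of these 3 groups. For the nilotinib groups the median was -0.25 at the low and 0.00 at the high dose, with 6 and 5 of 10 below 0, and for L-NAME it was -0.38, with 7 of 10 below 0. The median of all tested genes lay between -0.02 and 0.03 in the same comparisons. These 6 comparisons share the same 8 control mice.

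**Figure D2:**
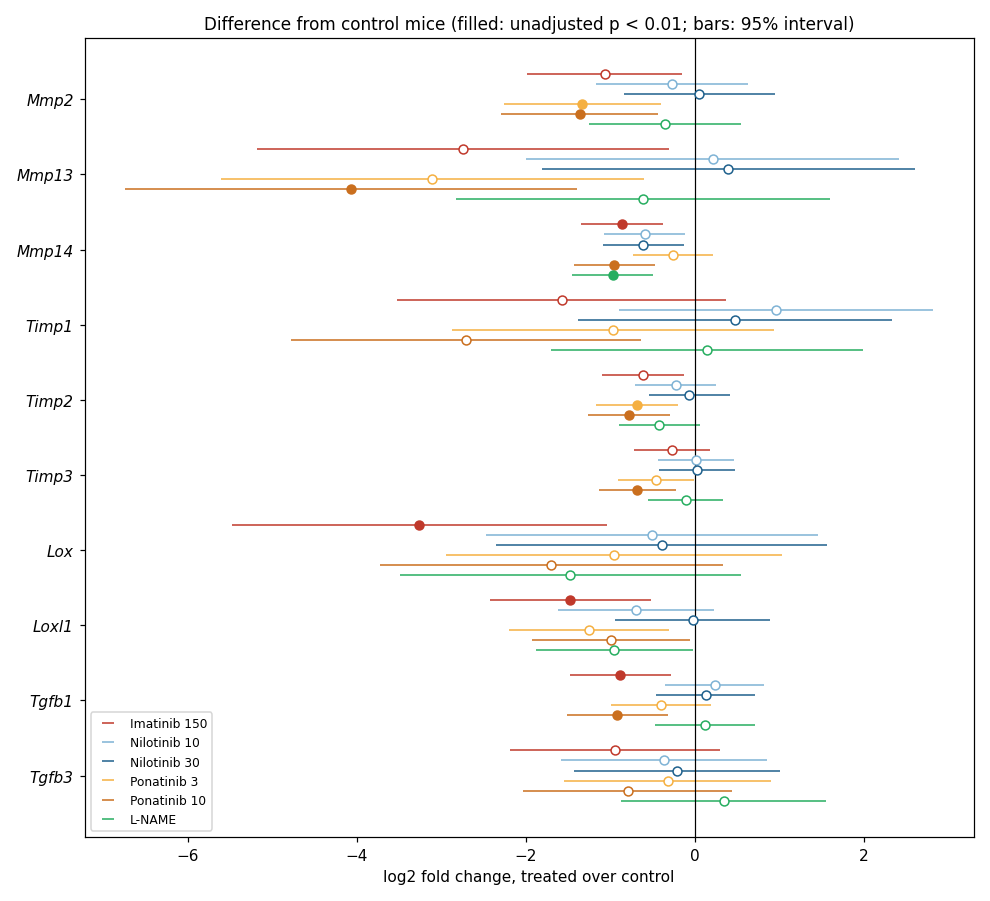
Log2 fold change of each treated group over control (horizontal axis) for the 10 genes, with 95% confidence intervals as bars and filled symbols at an unadjusted p-value below 0.01. All ponatinib and imatinib points lie left of 0, while the nilotinib points lie on both sides, and the intervals of Mmp13, Timp1 and Lox are several log2 units wide.

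Mmp2 encodes gelatinase A, which degrades basement membrane collagen and denatured collagen. It lies on chromosome 8, 92827291 to 92853420 (GRCm38). In control mice it ranged from 2.69 to 21.4 CPM, with a median of 9.02. With ponatinib 10 mg/kg it ranged from 0.557 to 7.70, with a median of 4.18, and with ponatinib 3 mg/kg from 0 to 6.48, with a median of 4.15. All 16 mice given ponatinib were below the control mean, and the ranges overlapped, with control replicates 3, 4 and 7 the lowest of their group. The log2 fold change was -1.36 ± 0.46 (SE) with 10 mg/kg (adjusted p = 0.0402) and -1.33 ± 0.46 with 3 mg/kg (adjusted p = 0.286). At 10 mg/kg the call was lost without control replicate 1 or 6 or ponatinib replicate 2 or 7, each left out on its own (log2 fold change -1.12 to -1.24), and with the share of reads outside genes as a covariate (-1.28, adjusted p = 0.228). At 3 mg/kg it was lost without control replicate 1, 2 or 6 or ponatinib replicate 2, 3 or 8 (-1.09 to -1.29). With imatinib the median was 4.82 CPM and the log2 fold change -1.07 ± 0.46 (adjusted p = 0.135), with all 8 mice below the control mean. Limma voom with sample quality weights called Mmp2 lower in this group (-1.36, adjusted p = 0.0239). Nilotinib 30 mg/kg had the highest mean, 10.6 ± 4.77 CPM against 10.2 ± 6.32 in control, with a log2 difference of 0.06 and a 95% interval of -0.84 to 0.95.

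Mmp13, the main interstitial collagenase of rodents, lies on chromosome 9, 7272514 to 7283331. Control mice ranged from 0 to 4.94 CPM with a median of 1.72, and 2 of 8 had no read. With ponatinib 10 mg/kg, 7 mice had no read and replicate 5 had 7 reads, or 0.932 CPM. With ponatinib 3 mg/kg 6 of 8 mice had no read, and with imatinib 5 of 8, with highest values of 1.35 and 0.997 CPM. In the nilotinib groups 3 and 2 mice had no read and the medians were 1.08 and 2.03 CPM. The high values of Mmp13 thus lay in control, nilotinib and L-NAME mice, and its zeros in all groups. Against control the log2 fold change with ponatinib 10 mg/kg was -4.06 ± 1.34 (adjusted p = 0.0327). The mean was 0.117 ± 0.330 CPM with ponatinib 10 mg/kg and 2.07 CPM in control mice, over all 8 mice of each group. Without replicate 5 the ponatinib group is wholly at 0 reads, and the fitted value moved to -7.39, which depends on the prior count and is no bound. The call did not pass with limma voom (log2 fold change -3.37, adjusted p = 0.0670) or with sample quality weights (-2.92, adjusted p = 0.119). With ponatinib 3 mg/kg the log2 fold change was -3.11 ± 1.25 (adjusted p = 0.356), and it was -4.61 and passed the cut-off without replicate 5, the mouse with the highest value. With imatinib it was -2.74 ± 1.22 (adjusted p = 0.149).

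Mmp14 encodes the membrane-bound metalloproteinase MT1-MMP, which cleaves collagen at the cell surface and activates the Mmp2 proenzyme. It lies on chromosome 14, 54431612 to 54445364. Control mice ranged from 32.6 to 56.6 CPM with a median of 46.2. With imatinib the range was 13.5 to 44.1 and the median 22.1, with ponatinib 10 mg/kg 15.6 to 52.7 and 20.7, and with L-NAME 11.7 to 36.5 and 21.9. Below the lowest control mouse lay 6 mice given imatinib, 7 given ponatinib 10 mg/kg and 6 given L-NAME, and ponatinib replicate 4, at 52.7 CPM, stood apart from the other 7, of which the next was at 27.2. Log2 fold changes were -0.86 ± 0.24 with imatinib (adjusted p = 0.0141), -0.95 ± 0.24 with ponatinib 10 mg/kg (adjusted p = 0.00478) and -0.97 ± 0.24 with L-NAME (adjusted p = 0.00429). These 3 calls held under all settings tried, the omission of each mouse included. The share of reads outside genes was higher in these groups than in control. With it as a covariate the log2 fold changes were -0.71, -0.73 and -0.72, still past the cut-off, and the adjusted p-values were 0.0831, 0.126 and 0.157. With nilotinib the means were 31.1 ± 10.1 and 30.7 ± 12.4 CPM at 10 and 30 mg/kg, against 46.8 ± 7.77 in control, and the log2 fold changes were -0.59 and -0.61 (adjusted p = 0.214 and adjusted p = 0.126). Both were outside the cut-off in the edgeR fit of all mice and inside it with limma voom (-0.66, adjusted p = 0.0769 at 10 mg/kg and -0.71, adjusted p = 0.0327 at 30 mg/kg), with sample quality weights (-0.87, adjusted p = 0.00456 and -0.50, adjusted p = 0.0343) and in the edgeR fit of only the mice of both groups (-0.59, adjusted p = 0.0805 and -0.60, adjusted p = 0.0550), and at 30 mg/kg also with no filter on low counts. Among omissions of single mice, they passed it at 10 mg/kg without nilotinib replicate 1 or 6 (-0.66 and -0.70), at 30 mg/kg without control replicate 3 or nilotinib replicate 4, 5 or 7 (-0.67 to -0.70), and at both without ponatinib 10 mg/kg replicate 4, which enters the shared estimate of spread.

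The inhibitors differed in level. Timp2, which blocks Mmp2 and also takes part in its activation by Mmp14, lies on chromosome 11, 118301069 to 118355740. Control mice ranged from 14.7 to 50.9 CPM with a median of 34.7. Ponatinib 10 mg/kg gave 7.80 to 29.1 with a median of 23.3, and ponatinib 3 mg/kg 11.2 to 27.8 with a median of 23.5. All 16 mice were below the control mean of 35.2 and within or below the control range. The log2 fold change was -0.78 ± 0.24 at 10 mg/kg (adjusted p = 0.0239), a call that held under all settings tried, and -0.68 ± 0.24 at 3 mg/kg (adjusted p = 0.292). The latter was lost without control replicate 1, 2 or 6 or ponatinib replicate 2, 3 or 4 (-0.58 to -0.66), and in the fit without the L-NAME group (-0.68, adjusted p = 0.341). With imatinib the log2 fold change was -0.61 ± 0.24 (adjusted p = 0.0950). It passed the cut-off in limma voom with sample quality weights (-0.74, adjusted p = 0.00666), with no filter on low counts (-0.62, adjusted p = 0.0889) and in the edgeR fit of only the mice of both groups (-0.61, adjusted p = 0.0634). Among omissions of single mice, it passed without control replicate 3 or 4 or imatinib replicate 5 or 6 (-0.68 to -0.73), and also without nilotinib 30 mg/kg replicate 8 or ponatinib 10 mg/kg replicate 2.

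Timp3 binds to the matrix and inhibits metalloproteinases and ADAM proteases, and lies on chromosome 10, 86300372 to 86349506. Control mice ranged from 25.6 to 49.4 CPM with a median of 39.1, and ponatinib 10 mg/kg gave 6.41 to 30.6 with a median of 27.0. Replicate 2 of the ponatinib group, at 6.41 CPM, lay far below the other 7 mice, which began at 21.7. This mouse was also the lowest of its group for Mmp2 and Timp2, and its summed marker levels were the lowest of the group for stellate cells and fibroblasts (227 CPM against 669 or more in the other 7), endothelial cells (127 against 172 or more) and hepatocytes (68217 against 111244 or more). The log2 fold change was -0.68 ± 0.23 (adjusted p = 0.0372). The call was lost without ponatinib replicate 2 (-0.53) and without control replicate 6 (-0.61). In the other treated groups no call was made, with a log2 fold change of -0.46 (95% interval -0.91 to -0.01) with ponatinib 3 mg/kg and -0.27 (-0.72 to 0.18) with imatinib.

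Timp1, the inhibitor that is typically induced in injured liver, lies on chromosome X, 20870166 to 20874735, and was the lowest of the 3 inhibitors. It ranged from 0 to 3.43 CPM in control mice with a median of 1.15, and from 0 to 0.666 with ponatinib 10 mg/kg, where 5 of 8 mice had no read. With nilotinib 10 mg/kg it ranged from 0 to 5.79 with a median of 1.87, and with nilotinib 30 mg/kg from 0.272 to 3.23 with a median of 1.59. Timp1 had its highest group means with nilotinib and its lowest with ponatinib 10 mg/kg, and control lay between them. No comparison with control was called: the log2 fold change was -2.70 ± 1.04 with ponatinib 10 mg/kg (adjusted p = 0.0725) and 0.96 ± 0.93 with nilotinib 10 mg/kg (95% interval -0.90 to 2.82). The former passed the cut-off with DESeq2 (-2.78), with the share of reads outside genes as a covariate (-3.77), without control replicate 3, 4 or 7 or ponatinib replicate 3 or 5 (-2.85 to -3.32), and when any of 4 mice of other groups was left out.

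Lox, the founding member of the lysyl oxidase family, lies on chromosome 18, 52516067 to 52529867. In control mice all 8 had reads, with 0.783 to 4.25 CPM and a median of 1.74. With imatinib 5 of 8 mice had no read, and replicates 1, 2 and 4 had 1, 6 and 8 reads. The highest imatinib mouse, at 0.910 CPM, lay just above the lowest control mouse, and 6 of 8 lay below every control mouse. For imatinib the log2 fold change was -3.26 ± 1.11 (adjusted p = 0.0470), and it was -3.32, just outside the cut-off, with the share of reads outside genes as a covariate (adjusted p = 0.116). With nilotinib 10 mg/kg 4 mice had no read, but replicates 5 and 6 reached 7.17 and 4.95 CPM, and the log2 fold change was -0.50 ± 0.98. The limma voom test called Lox lower in this group (-2.53, adjusted p = 0.110), and also with ponatinib 10 mg/kg (-2.64, adjusted p = 0.0344) and L-NAME (-1.87, adjusted p = 0.0534), where edgeR made no call.

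Loxl1, a lysyl oxidase that is needed for elastic fibre upkeep, lies on chromosome 9, 58287738 to 58313186. Control mice ranged from 2.02 to 11.0 CPM with a median of 4.79, and imatinib gave 0.910 to 4.18 with a median of 1.79. Below every control mouse lay 5 of the 8 imatinib mice. The log2 fold change was -1.47 ± 0.48 (adjusted p = 0.0358), and without control replicate 6, the highest mouse, it was -1.27 and the call was lost. In limma voom with sample quality weights it was -1.37, just outside the cut-off (adjusted p = 0.0454). With ponatinib 3 mg/kg the mean was 2.39 ± 1.21 CPM and the log2 fold change -1.25 ± 0.47 (adjusted p = 0.322), just outside the cut-off, and leaving out single mice put it inside in 19 of 56 cases. It was also inside with DESeq2 (-1.26), without the L-NAME group (-1.25), with only the mice of both groups (-1.26) and with the share of reads outside genes as a covariate (-1.30). With nilotinib 30 mg/kg the mean, 5.61 ± 2.14, was close to that of control, 5.69 ± 3.56, with a 95% interval of the log2 difference of -0.94 to 0.90. With L-NAME the log2 fold change was -0.95 ± 0.46, and without L-NAME replicate 4 it was -1.35 and passed the cut-off (adjusted p = 0.0542).

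Tgfb1, the main TGF-beta ligand in liver fibrosis, lies on chromosome 7, 25687002 to 25705077. Control mice ranged from 9.83 to 29.7 CPM with a median of 25.2. With imatinib the range was 4.08 to 22.7 and the median 13.1, and with ponatinib 10 mg/kg 2.14 to 28.2 and 11.8. All 8 imatinib mice and 7 of 8 ponatinib mice were below the control mean, ponatinib replicate 5 being the exception. Fold changes on the log2 scale were -0.88 ± 0.30 with imatinib (adjusted p = 0.0476) and -0.91 ± 0.30 with ponatinib 10 mg/kg (adjusted p = 0.0325). The first call was lost without control replicate 8 or imatinib replicate 3, 5 or 7 (-0.75 to -0.82). The second was lost without ponatinib replicate 1 or 6 (-0.79 and -0.75) and when only the mice of both groups entered the fit (-0.91, adjusted p = 0.0914). In the nilotinib and L-NAME groups the means were 27.5 ± 6.37, 25.5 ± 7.50 and 25.3 ± 9.43 CPM, against 23.2 ± 6.78 in control, and no call was made.

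Tgfb3, a second ligand of the same receptors, lies on chromosome 12, 86056745 to 86079041. It ranged from 0.844 to 5.90 CPM in control mice with a median of 2.91, and its group means lay between 1.51 ± 0.847 with imatinib and 3.70 ± 1.89 with L-NAME. It was called in none of the 12 comparisons by edgeR, and none had p below 0.05. The interval of its log2 fold change was -2.18 to 0.30 with imatinib, -2.03 to 0.44 with ponatinib 10 mg/kg and -0.87 to 1.56 with L-NAME, so that a change of 1 log2 unit was within each of them.

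Treated groups were then set against each other. Of the ponatinib doses, Mmp14 was lower at 10 than at 3 mg/kg, at 24.3 ± 12.0 against 39.2 ± 12.0 CPM, with a log2 fold change of -0.69 ± 0.24 (adjusted p = 0.132), against 5.78% of all tested genes called, 2.65% called lower and 0.419% lower at an adjusted p-value below 0.05. This call was lost with the share of reads outside genes as a covariate (-0.52) and without any one of ponatinib 10 mg/kg replicates 3, 5, 6, 7 and 8 and ponatinib 3 mg/kg replicates 1, 3 and 7 (-0.61 to -0.67). For the other 9 genes no difference between the doses was called, with a 95% interval of -0.97 to 0.90 for Mmp2 and -0.59 to 0.39 for Timp2. Tgfb1 differed by -0.52 between the doses (95% interval -1.12 to 0.09), and without ponatinib 10 mg/kg replicate 5 it was called, at -0.80. Between nilotinib 30 and 10 mg/kg none of the 10 was called by edgeR, DESeq2 or limma voom, none had p below 0.05, and 1.32% of all genes were called.

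Ponatinib and nilotinib at 10 mg/kg, each in 1 gavage per day, were the only pair of compounds with a matched dose in mg/kg. Plasma exposure was not matched, as the paper reports a higher exposure to nilotinib than to ponatinib at this dose. Compound and exposure therefore cannot be told apart in this pair. Ponatinib carries an alkyne linker that nilotinib lacks. Of the 10 genes 4 were lower with ponatinib, against 6.73% of all genes called and 3.07% called lower: Tgfb1, Timp1, Mmp13 and Timp3. For Tgfb1 7 of 8 ponatinib mice lay below every nilotinib mouse, which began at 17.3 CPM, and the log2 fold change was -1.15 ± 0.30 (adjusted p = 0.0246), a call that held under all settings tried. At an adjusted p-value below 0.05, which 1.03% of all genes passed as lower, it was the only one of the 10. The log2 difference was -3.66 ± 1.07 for Timp1 (adjusted p = 0.0502), -4.28 ± 1.35 for Mmp13 (adjusted p = 0.0711) and -0.69 ± 0.23 for Timp3 (adjusted p = 0.0889). The Timp3 call was lost without ponatinib replicate 2 (-0.54) or nilotinib replicate 6 (-0.59). Mmp13 was not called by limma voom (-3.07, adjusted p = 0.220) or by limma voom with sample quality weights (-2.60, adjusted p = 0.402). Its edgeR value was -7.60 without ponatinib replicate 5, again a fit against a group wholly at 0 reads. For Mmp2 the difference was -1.09, and without ponatinib replicate 6 it was -1.29 and was called. For Loxl1 the 95% interval of the log2 difference was -1.23 to 0.64, for Mmp14 -0.84 to 0.12 and for Tgfb3 -1.67 to 0.81.

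The other pairs differ in dose as well as compound, which cannot be told apart in them. Against nilotinib 30 mg/kg, ponatinib 10 mg/kg was lower in 6 genes, Mmp2, Mmp13, Timp1, Timp2, Timp3 and Tgfb1, against 5.64% of all genes called and 2.86% called lower. At an adjusted p-value below 0.05, where 0.957% of all genes were lower, none was left (at 0.05 without adjustment there were 7, and DESeq2 and limma voom called 6 each at 0.01). The difference was -1.05 ± 0.30 for Tgfb1 (adjusted p = 0.0502) and -1.42 ± 0.47 for Mmp2 (adjusted p = 0.100), a call that was lost without nilotinib replicate 8 (-1.21). For Timp2 it was -0.71 ± 0.24 (adjusted p = 0.118). Without nilotinib replicate 8, at 70.2 CPM the highest mouse for this gene, it was -0.46 and no longer called, and the call was also lost without nilotinib replicate 4 or ponatinib replicate 2, 5 or 8 (-0.59 to -0.66). For Timp3 it was -0.70 ± 0.23 (adjusted p = 0.0944), and the call was lost without ponatinib replicate 2 (-0.56) or nilotinib replicate 2 (-0.58). Timp1 was at -3.18 ± 1.05 and Mmp13 at -4.47 ± 1.35, the latter moving to -7.79 without ponatinib replicate 5. The Mmp13 call was lost in limma voom with sample quality weights (-3.34, adjusted p = 0.149). Imatinib 150 mg/kg was lower than nilotinib 30 mg/kg in Loxl1 (-1.45 ± 0.48, adjusted p = 0.0731, lost without nilotinib replicate 7 at -1.28) and Tgfb1 (-1.01 ± 0.30, adjusted p = 0.0423), against 7.55% of all genes called, 4.56% called lower and 2.38% lower at the adjusted threshold. With sample quality weights 5 of the 10 were called in this comparison, and without nilotinib replicate 3 there were 4, Lox and Mmp13 being added. The share of all genes was not counted for other tools, for fits with a mouse left out or for 0.05 without adjustment. The numbers called under them thus have no background. Between ponatinib 10 mg/kg and imatinib none of the 10 genes was called by edgeR, DESeq2 or limma voom and none had p below 0.05, with 4.09% of all genes called. The 95% interval of that difference was -0.64 to 0.57 for Tgfb1 and -0.57 to 0.39 for Mmp14, and it was as wide as -0.59 to 3.72 for Lox.

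**Figure D3:**
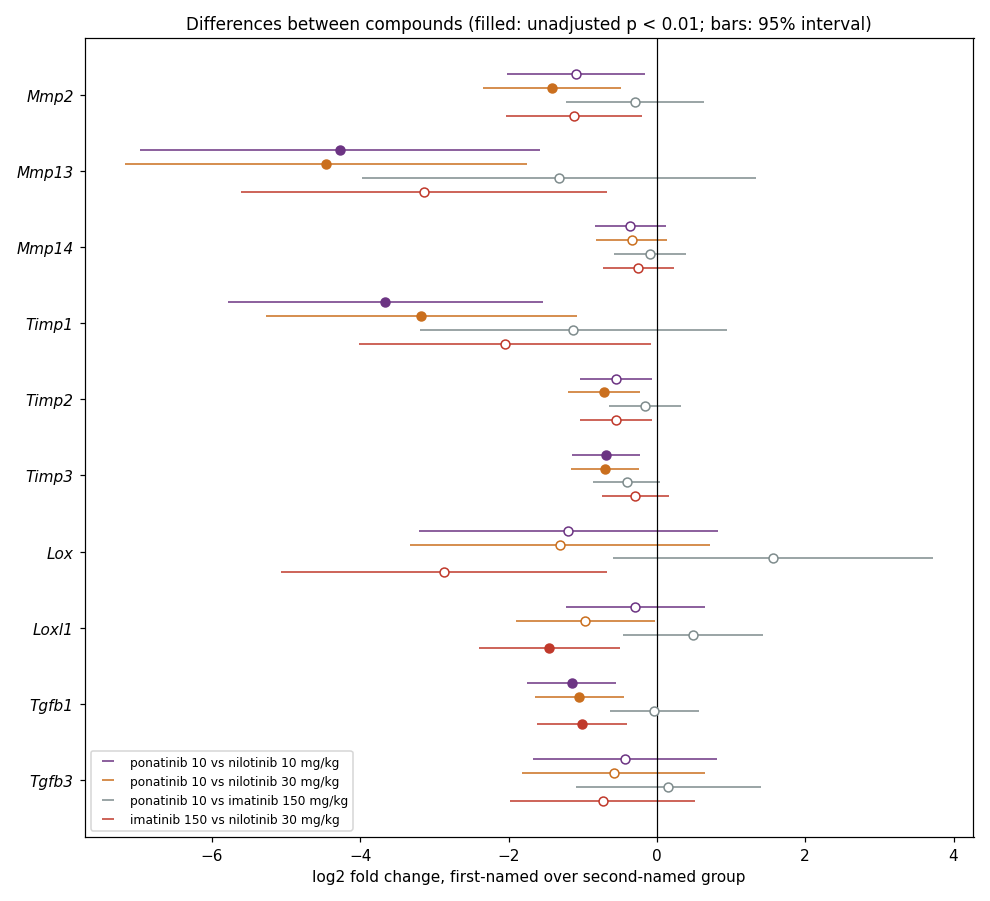
Log2 fold change between compounds (horizontal axis, first-named over second-named group) for the 10 genes, with 95% confidence intervals as bars and filled symbols at an unadjusted p-value below 0.01. Tgfb1 is filled in all 3 comparisons with nilotinib, at -1.15, -1.05 and -1.01, and lies at -0.03 between ponatinib and imatinib.

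Around the 10 genes, a list of 80 further genes of matrix turnover and TGF-beta signalling was examined, of which 67 were tested and 13 were below the filter. This list, too, was drawn up with earlier results of these data known, so its counts are descriptive. With imatinib 16 of the 67 fell and none rose, or 23.9%, against 12.9% of all genes called and 6.06% called lower, and 10 had an adjusted p-value below 0.05. The largest changes were those of Mmp12, the macrophage elastase, from 40.4 ± 33.0 to 7.48 ± 6.26 CPM (log2 fold change -2.45 ± 0.72), Ltbp2 (-1.97), Fbn1 (-1.94), Ccn2 (-1.29) and Adamts5 (-1.28). Fbn1 encodes fibrillin, to which latent TGF-beta complexes are anchored, and Ccn2 is a target gene of TGF-beta. With ponatinib 10 mg/kg 10 of 67 fell, or 14.9%, against 15% of all genes called in either direction and 6.85% called lower, and 9 of them had an adjusted p-value below 0.05. They were led by Mmp12 (-2.64), Ltbp2 (-2.13), Adamts2 (-1.40), which trims the ends of procollagen, the TGF-beta receptor Tgfbr2 (-0.91) and Adamts1 (-0.86). Tgfbr2 went from 39.8 ± 11.6 in control to 21.2 ± 5.17 CPM (adjusted p = 0.00116). The number was 18 without ponatinib replicate 4 and 10 for imatinib without control replicate 1 or imatinib replicate 1.

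With ponatinib 3 mg/kg 9 of 67 fell, or 13.4%, against 3.14% of all genes called and 1.74% called lower, led by Mmp12 (-2.48), Ltbp2 (-2.08) and Mmp23 (-1.55), and none had an adjusted p-value below 0.05. The number ranged from 3 to 5 without control replicate 1, 2 or 6 or ponatinib replicate 2, 3, 4 or 7. With nilotinib 10 mg/kg 4 fell, or 5.97%, the same as the 5.97% of all genes called, and Furin (-0.66), Smurf2 (-0.42) and Adam9 (-0.42) had the largest changes. Furin is a proprotein convertase that cleaves the TGF-beta precursor. With nilotinib 30 mg/kg Furin (-0.68), Adam9 (-0.68) and Smad3 (-0.55) fell and Tgif1, a repressor of SMAD signalling, rose (0.50), so that 5.97% were called against 9.35% of all genes, and 2 were called without nilotinib replicate 5 or 8. With L-NAME 5 fell, or 7.46%, against 14% of all genes called and 7.29% called lower (3 without control replicate 1 or L-NAME replicate 1 or 8), led by Adam9 (-0.82), Furin (-0.68) and Ski (-0.51). The median log2 fold change of the 67 genes was -0.44 with imatinib, -0.31 and -0.35 with ponatinib 3 and 10 mg/kg, -0.12 and -0.01 with nilotinib 10 and 30 mg/kg and -0.25 with L-NAME.

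In whole liver, fewer cells of a type and less RNA per cell cannot be told apart. Cell type markers are therefore given beside the results, called at the same unadjusted cut-off. Of all genes, 12.9% were called with imatinib, 3.14% and 15% with ponatinib 3 and 10 mg/kg and 14% with L-NAME. Those called lower were 6.06% with imatinib, 1.74% and 6.85% with ponatinib 3 and 10 mg/kg and 7.29% with L-NAME. With nilotinib 10 and 30 mg/kg 5.97% and 9.35% were called. The summed level of 7 activated myofibroblast markers had a median of 522 CPM in control mice (range 203 to 979). It was 199.8 with imatinib (143 to 255), 203 with ponatinib 3 mg/kg (153 to 465) and 225 with ponatinib 10 mg/kg (171 to 305). Of these markers Col1a1, Col1a2 and Col3a1 fell in each of the 3 groups, and Acta2, the defining contractile marker, was called in none of them. With nilotinib 10 and 30 mg/kg the medians were 329 and 416 CPM and none of the 7 was called, and with L-NAME it was 322 and Col1a1 and Col1a2 fell. The 8 markers of recruited monocytes and macrophages had a summed median of 177 CPM in control mice (54.5 to 390), 44.1 with imatinib (23.6 to 67.6), 71.3 with ponatinib 3 mg/kg (38.2 to 133), 39.8 with ponatinib 10 mg/kg (32.0 to 94.3), 145 and 185 with nilotinib and 149 with L-NAME. With imatinib 4 of the 8 fell (Cd68, Trem2, Gpnmb and Itgax), with ponatinib 10 mg/kg 3 (Cd68, Gpnmb and Itgax) and with ponatinib 3 mg/kg 1 (Gpnmb). The 10 markers of stellate cells and fibroblasts had summed medians of 699 CPM in control, 699 with imatinib, 695 and 731 with ponatinib, 811 and 821 with nilotinib and 743 with L-NAME. Such sums are weighted to abundant genes, and the median log2 fold change of these 10 markers was -0.33 with imatinib and -0.29 and -0.33 with ponatinib 3 and 10 mg/kg. Pdgfrb fell with imatinib and ponatinib 3 mg/kg, and Ecm1 rose with imatinib, ponatinib 10 mg/kg and nilotinib 30 mg/kg. Kupffer cell markers, 7 in number, were at a summed median of 889 CPM in control mice (653 to 1319), 546 with imatinib (345 to 766), 1129 and 1107 with nilotinib, 1075 with ponatinib 3 mg/kg (552 to 1535), 889 with ponatinib 10 mg/kg (347 to 1970) and 1065 with L-NAME. Adgre1 and Cd5l fell with imatinib, Clec4f and Marco rose with both doses of ponatinib, where the median log2 fold change of the 7 was 0.57 and 0.61, and Clec4f rose with nilotinib and L-NAME. In the comparison of ponatinib with nilotinib at 10 mg/kg, 3 of 7 myofibroblast, 3 of 10 stellate cell and fibroblast, 5 of 8 monocyte and macrophage, 5 of 8 endothelial and 1 of 7 Kupffer cell markers were lower with ponatinib. Of all genes 6.73% were called in this pair and 3.07% were called lower. The endothelial sums had medians of 245 CPM with ponatinib (127 to 336) and 367 with nilotinib (317 to 404) at this dose, and 259 in control mice. No marker of these 5 lists was at 0 in every mouse of a group. The imatinib and ponatinib groups, which held the lowest group mean of 9 of the 10 genes, thus also had the lowest summed levels of myofibroblast and of monocyte and macrophage markers. Gpnmb alone gave 108 of the mean monocyte and macrophage sum of 195 CPM in control mice. Of the mean myofibroblast sum of 541 CPM in control mice, Col3a1 gave 204, Col1a1 101 and Col1a2 89.4. With imatinib they gave 33.6, 12.5 and 17.5 of 201 CPM. The myofibroblast sums thus mostly follow these collagen genes, and Acta2, Tagln, Postn and Spp1 were not called in the imatinib and ponatinib groups against control. With imatinib and ponatinib 3 and 10 mg/kg, the median log2 fold changes were -0.88, -0.90 and -0.53 over the myofibroblast markers. Over the monocyte and macrophage markers they were -1.34, -0.55 and -1.03. Hepatocyte markers, 8 in number, had summed medians of 111048 CPM in control, 109902 with imatinib, 109385 and 91485 with nilotinib, 135408 and 128533 with ponatinib and 96014 with L-NAME. With imatinib 2 of the 8 fell and 3 rose, with nilotinib 10 mg/kg 2 and 2, and with nilotinib 30 mg/kg 3 and 3. For ponatinib it was 0 and 3 at 3 mg/kg and 1 and 3 at 10 mg/kg, and for L-NAME 3 and 3. The part of cell number in the differences was not tested.

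**Figure D4:**
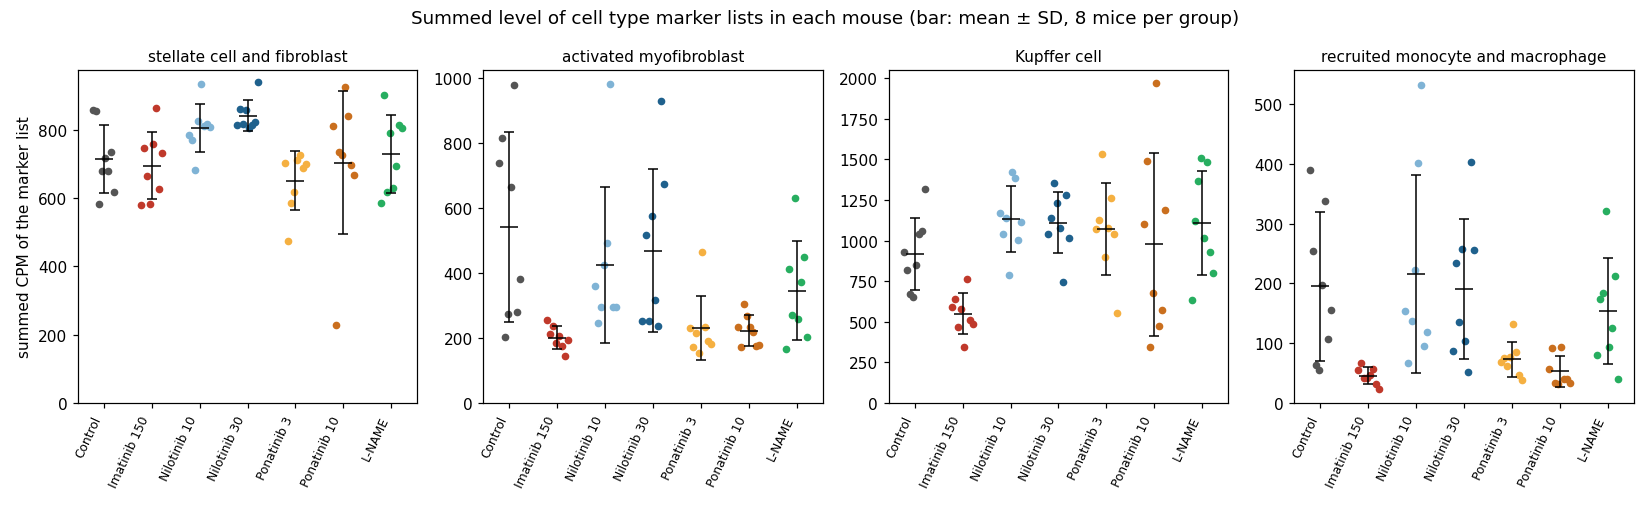
Summed CPM of 4 marker lists (vertical axes, linear from 0) in each of the 56 mice, 8 points per group with the mean and SD as bars. The myofibroblast sums of imatinib mice lie between 143 and 255 and those of control mice between 203 and 979. The stellate cell and fibroblast sums of these groups have medians of 699, a sum weighted to abundant genes, with a median log2 fold change of -0.33 over the 10 markers.

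Within groups the levels of the 10 genes varied together to different degrees. After subtraction of group means, Pearson's r of log2 CPM over the 56 mice, which share library preparation and differ in depth, had a median of 0.23 over the 45 pairs of genes, with 39 pairs above 0 and a mean of 0.011 over all pairs of tested genes. The highest values were 0.53 for Mmp2 with Timp3, 0.52 for Timp1 with Lox and 0.51 for Timp2 with Timp3. The lowest was -0.22, for Mmp2 with Tgfb1.

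**Figure D5:**
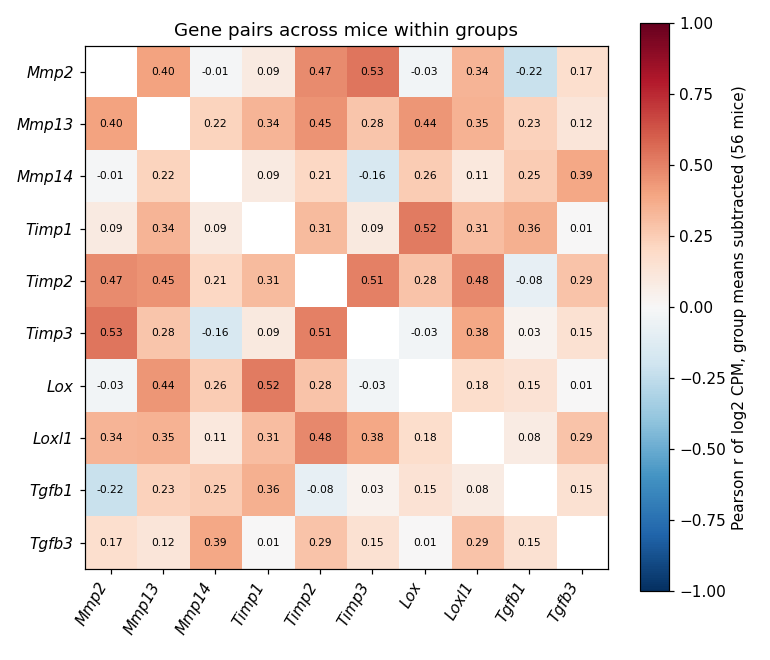
Pearson's r (colour scale from -1 to 1, values printed) of log2 CPM for each pair of the 10 genes over 56 mice after subtraction of group means. Mmp2, Timp2 and Timp3 form a block between 0.47 and 0.53, and Tgfb1 is near or below 0 with each of them, at -0.22, -0.08 and 0.03.

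The genes most like each of the 10 by this measure differed. For Timp2 they were Sparc (0.75), Bgn (0.74) and Dcn (0.72), for Mmp2 Olfml3 (0.76), Col6a3 (0.70) and Cryab (0.68), for Timp3 Angptl2 (0.71), Igfbp7 (0.71) and Tnxb (0.70), and for Loxl1 Bgn (0.55), Itga8 (0.54) and Cd63-ps (0.54). Several of these encode matrix proteins or proteoglycans. For Tgfb1 they were Hcls1 (0.70), Fcgr1 (0.70) and Epb41l3 (0.69), of which Hcls1 and Fcgr1 are expressed in blood-derived cells, for Mmp13 Psap (0.75), Cd74 (0.73) and Vim (0.73), and for Lox Capg (0.68), H2-Eb1 (0.63) and H2-Aa (0.62). Cd74, H2-Eb1 and H2-Aa belong to antigen presentation by MHC class II. For Mmp14 they were Ugt1a6b (0.77), Ctnnb1 (0.74) and Capza2 (0.73), for Timp1 Defb1 (0.61), Ptgfrn (0.59) and H2-DMa (0.57), and for Tgfb3 Lzts2 (0.57), Krr1 (0.55) and Lrfn3 (0.55). Against the marker sums, Tgfb1 had an r of 0.66 with the Kupffer cell list and 0.26 with the myofibroblast list, while Timp2 had -0.11 and 0.65. Mmp13 had 0.73 with both the myofibroblast and the monocyte and macrophage list, and Timp3 had 0.64 with the stellate cell and fibroblast list. Mmp14 stayed at 0.32 or below with each of the 5 lists of stellate, myofibroblast, endothelial, Kupffer and monocyte markers. With the hepatocyte list the 10 genes lay between -0.52 (Lox) and 0.04 (Timp3), with Mmp13 at -0.39.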

How the data were processed

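Total RNA of 56 livers was poly(A)-selected and sequenced. The authors aligned reads to GRCm38 (submitters' processing notes name TopHat2 2.0.14, Bowtie2 2.1.0, SAMtools 0.1.18 and HTSeq 0.6.1p1) and deposited raw counts of reads per gene and mouse. Strand setting and counting mode are not given in the sources used here. The deposited counts were tested with edgeR 4.0.16 (R 4.3.3): TMM, filterByExpr (minimum count 10), and a quasi-likelihood fit of the 7 groups over all 56 mice. A gene was called at unadjusted p below 0.01. Summary lines of HTSeq were left out of library sizes. Alternatives were DESeq2 1.42.0, limma 3.58.1 voom with and without sample quality weights, RLE scaling, no filter, fewer mice, an adjusted cut-off of 0.05, a covariate and omission of each mouse. Coordinates and exon lengths came from GENCODE vM21, matched to 44585 of 45513 identifiers. The scripts were tested on simulated data. The 10 genes, the gene lists, markers and tests were chosen with earlier results of these data known. All 10 genes were named, with the 5 largest called changes of the further list per high-dose group, up to 3 in the other groups, and the 3 most alike genes of each.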

Additional observations from a re-analysis of the deposited data

Results flagged for a closer look

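In each of 70 sets of 8 mice (10 genes in 7 groups), the mouse farthest from the others was examined by Dixon's criterion at the 95% level (gap over range). For normally distributed values it marks about 1 set in 20 by chance. The values here were linear CPM, with many at 0 for some genes, so this rate does not apply. A set with all mice but 1 at 0, as for Mmp13 with ponatinib 10 mg/kg, is always marked. In 11 sets 1 mouse stood apart. With ponatinib 10 mg/kg these were Mmp14 in replicate 4 at 52.7 CPM (next 27.2), Timp3 in replicate 2 at 6.41 CPM, the lowest (next 21.7), Lox in replicate 2 at 2.88 CPM (next 0.995) and Mmp13 in replicate 5 at 0.932 CPM (next 0). With ponatinib 3 mg/kg they were Mmp13 at 1.35 CPM and Tgfb3 at 6.61 CPM, both in replicate 5, and Timp1 in replicate 3 at 3.08 CPM. With nilotinib 30 mg/kg they were Mmp13 in replicate 7 at 11.1 CPM and Timp2 in replicate 8 at 70.2 CPM. With imatinib they were Loxl1 in replicate 1 at 4.18 CPM and Timp1 in replicate 2 at 1.46 CPM. No control mouse was marked, although the control group had the widest range of Mmp2.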

How the results depend on the processing

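Up to 65 settings were tried per gene and comparison, of which at most 9 kept all the mice of the groups compared and 56 left out 1 mouse each. Under none of them did a value change sign with a call. A gene below the filter of a fit had no value there, and L-NAME against control had none in the fit without L-NAME mice. Of 26 called differences of the 10 genes, 6 kept their call in all settings in which they were tested: Mmp14 with imatinib, ponatinib 10 mg/kg and L-NAME, Timp2 with ponatinib 10 mg/kg, and Tgfb1 in ponatinib against nilotinib at 10 mg/kg and in imatinib against nilotinib 30 mg/kg. The numbers of the 10 genes called, and of the 67 further genes, changed as follows. Shares of all genes were counted only for the edgeR fit of all mice. For the other fits the numbers have no background of the same setting. With an adjusted p-value below 0.05, 0 of the 10 were called for ponatinib 3 mg/kg, ponatinib 10 against 3 mg/kg and ponatinib 10 against nilotinib 30 mg/kg, and 1 for ponatinib 10 against nilotinib 10 mg/kg and imatinib against nilotinib 30 mg/kg, and of the 67, 10 with imatinib, 1 and 2 with nilotinib 10 and 30 mg/kg and 0 with ponatinib 3 mg/kg. Limma voom called 2 of the 10 with nilotinib 10 mg/kg, 1 with nilotinib 30 mg/kg and 2 with L-NAME. With sample quality weights the numbers were 2, 1 and, for imatinib against nilotinib 30 mg/kg, 5, and of the 67, 14 and 21 with ponatinib 3 and 10 mg/kg and 10 with L-NAME. Fitting only the groups compared gave 1 with nilotinib 10 mg/kg, 1 with nilotinib 30 mg/kg, 2 for ponatinib against nilotinib 10 mg/kg and 3 for ponatinib 10 against nilotinib 30 mg/kg, and no filter gave 1 with nilotinib 30 mg/kg. Each edgeR fit with a filter applied it anew, and genes below it were not tested there. In the fits of only ponatinib 10 mg/kg and nilotinib mice, 1 tested gene lost its call, Timp2 against nilotinib 30 mg/kg (-0.71, adjusted p = 0.257). The rest of the fall came from genes not tested. The covariate fit (share of reads outside genes) called 0 of the 10 for ponatinib 10 against 3 mg/kg, and 2 of the 67 with nilotinib 10 mg/kg, nilotinib 30 mg/kg and L-NAME each. Apart from genes left out by the filter, the cause of these changes was not tested. Over the omission of each mouse, the number of the 10 ranged from 3 to 5 with imatinib, 0 to 1 with either dose of nilotinib, 0 to 3 and 4 to 7 with ponatinib 3 and 10 mg/kg, 1 to 2 with L-NAME, 0 to 1 for ponatinib 10 against 3 mg/kg, 3 to 5 and 4 to 6 for ponatinib 10 mg/kg against nilotinib 10 and 30 mg/kg and 1 to 4 for imatinib against nilotinib 30 mg/kg. That of the 67 ranged from 10 to 18 with imatinib, 3 to 5 and 2 to 4 with nilotinib 10 and 30 mg/kg, 3 to 11 and 8 to 18 with ponatinib 3 and 10 mg/kg and 3 to 5 with L-NAME. No paired analysis was possible because the labels number the mice without repeats across groups. Depth limits Mmp13, Timp1, Lox and Tgfb3, with median counts of 23 reads or fewer in control mice.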
